A study of Homo sapiens with 73 samples.

Results

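38 genes of the G2 phase and mitosis were followed through an evolution experiment in CHLA-9, an established Ewing sarcoma cell line whose labels give the EWSR1-FLI1 genotype and bone as the tissue. The 38 were taken by symbol from a fixed list, not by a cut on their values. The list was chosen with earlier results of these data known. All 38 were found among the 36233 genes of the deposited table. All 38 also had a mean value of at least 10, as did 14565 genes in all, and these 14565 genes formed the background of every count given here. 7 treated lineages (R1 to R7, 49 libraries) alternated between VDC, which combines vincristine, doxorubicin and cyclophosphamide, and EC, which pairs etoposide with cyclophosphamide, each for 5 days at the concentration giving 70% effect, and then regrew without drug to 80 to 90% confluency before total RNA was taken. 3 DMSO lineages (R8 to R10, 23 libraries) were carried through the same time points with the solvent, and the untreated parental line gave 1 library. In treated lineages the odd time points came after VDC and the even ones after EC. All 10 lineages descend from this 1 line, and the libraries of a lineage are repeated samples of 1 culture, so the p-values measure the spread between lineages or libraries of 1 cell line. Because RNA was taken after regrowth, the values describe recovered cultures, not cells under drug.

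The unit is the authors' quantile-normalized count per gene, which is not corrected for gene length, so levels are compared here between libraries and not between genes. Depth per library is unknown. Time point 2 had DMSO libraries only (n = 3), time point 3 treated libraries only (n = 6), and time point 7 a single DMSO library, so no arm comparison was made at these times. Several libraries stood apart. Over all genes, the DMSO R8 library at time point 1 lay nearest to the treated R6 library of that time (root mean square log2 distance 0.356, against 0.61 to the other DMSO libraries of the time). The treated R1 library at time point 3 lay nearest to the DMSO R9 library at time point 2 (0.447, against 0.819 to the other treated libraries of its time), and the treated R1 library at time point 1 lay nearest to the parental line (0.54). 6 late libraries, known from earlier results of these data, also stood apart: the last library of treated R1 (time point 9) and of treated R2 (time point 10), and the last pair of libraries of DMSO R9 (time points 8 and 9) and of DMSO R10 (time points 9 and 10). The 2 treated ones lay nearest to each other (0.442, against 1.09 and 1.18 to the other treated libraries of their times) and had Ewing sarcoma marker sums of 41020 and 35750, where every other evolved library had at least 56590. The 4 DMSO ones had sums of 412 to 1184 over 8 blood cell markers, where every other evolved library had at most 297.3. Their CDKN1A values were 2416 to 10120. Treated R4 at time point 4 (4992) and the 2 late treated libraries (2857 and 3076) lay in this range too. In each marker sum 1 gene weighed most. It was CCND1 in the Ewing sarcoma sum (median 41940 over the libraries) and CD79A in the blood cell sum (median 122.6, highest 1050). Results at time points 8 to 10 that change without these libraries are given with both values. Of 10 Ewing sarcoma markers, 9 were present at the filter, among them NR0B1 (840.4 to 5544). The deposited values of CD99, the surface antigen used in diagnosis, were very low (0.00104 to 2.31 over the libraries). Whether this came from the cells or from the counting of its reads was not tested.

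Mitosis runs on a wave of transcripts made late in the cycle. Cyclins A and B activate CDK1 once CDC25 phosphatases have removed its inhibitory phosphates, Aurora and Polo-like kinases build the spindle, the checkpoint holds chromosome separation until every kinetochore is attached, and the anaphase ligase then destroys securin and cyclin B. Most of these genes are read from promoters that carry CCAAT boxes, bound by NF-Y, and a cell cycle genes homology region (CHR), bound by the DREAM complex in resting cells and by B-MYB, MuvB and FOXM1 in dividing ones. Their summed level is therefore widely used as a measure of how many cells of a culture are dividing. In bulk RNA, fewer dividing cells and less of these transcripts per cell cannot be told apart.

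The genes moved largely as a block from library to library. After the mean of each arm and time point was taken out, the 703 pairs of genes had a median Pearson correlation of 0.798 over 71 libraries (range 0.0833 to 0.957), a description of points that share library and normalization. Without the 2 libraries with the lowest levels the median pair was at 0.781. TPX2, the activator of Aurora A on the spindle, followed the mean of the other 37 genes most closely (0.964), ahead of the cytokinesis kinesin KIF20A (0.96) and the centromeric histone CENPA (0.954). At the other end stood CENPE, the kinesin that carries chromosomes to the spindle equator (0.674, or 0.835 without the 2 lowest libraries), CDC25B, the phosphatase that starts CDK1 activation (0.596), and NUSAP1, a microtubule bundler of the spindle (0.44). NUSAP1 had a low mean value of 14.98, and the part of this in its correlation was not tested. The checkpoint protein BUB3 also followed less closely (0.698) and varied little, with a ratio of highest to lowest library of 1.56. The same ratio was 2.4 for the kinase PLK1, 7.44 for the kinase AURKB, 7.89 for the microtubule-depolymerizing kinesin KIF2C and 8.3 for MKI67, the coat protein of mitotic chromosomes. The median spread of the 38 genes within arm and time point (SD on the log2 scale) was 0.364, against 0.281 over all genes.

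**Figure D1:**
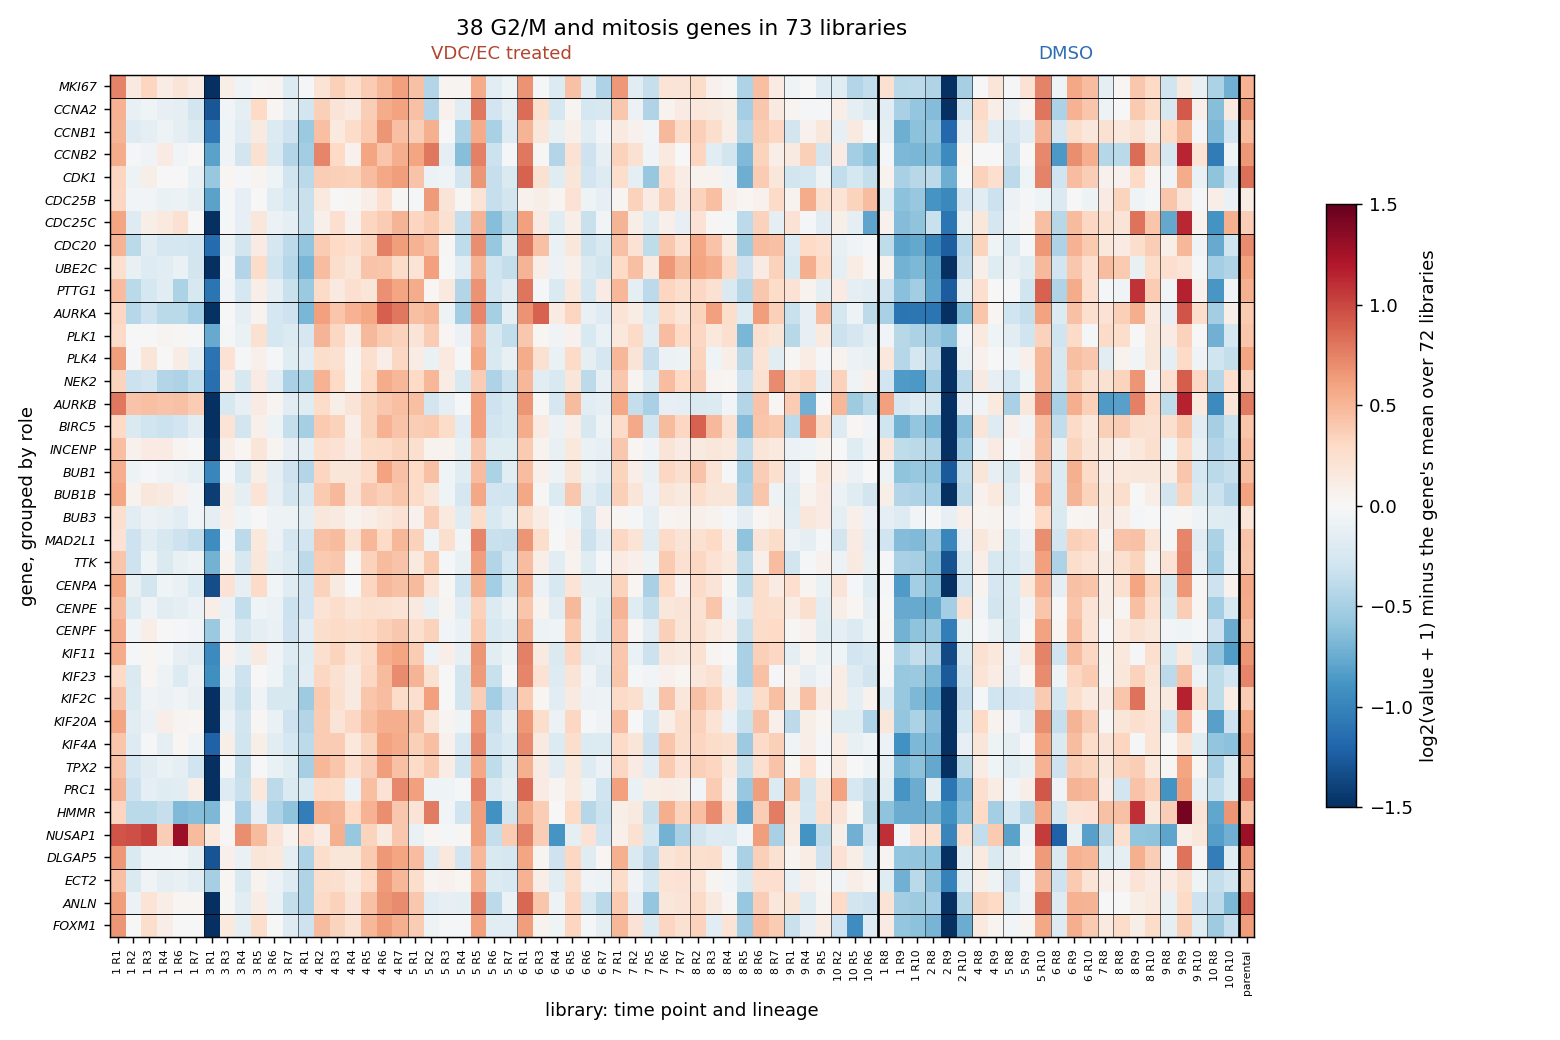
Level of each of the 38 genes (one line per gene, ordered by role) in each of the 73 libraries (columns: treated, DMSO, parental, by time point), as log2(value + 1) minus the gene's mean over 72 libraries. Whole columns turn red (high) or blue (low) together, and the deepest blue columns are treated R1 at time point 3 and DMSO R9 at time point 2, with means over the genes of -1.1 and -1.33.

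28 of the 38 genes had their lowest value of all 72 evolved libraries in DMSO R9 at time point 2, and 5 more had it in treated R1 at time point 3. 12 had their highest value in DMSO R9 at time point 9. Averaged over the 38 genes and centred on the evolved libraries, the treated libraries ranged from -1.1 to 0.596 (median 0.035, n = 49) and the DMSO libraries from -1.33 to 0.588 (median -0.0353, n = 23), on the log2 scale. The parental library stood at 0.563, and 3 of the 72 evolved libraries exceeded it.

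Promoter stretches are shown because the genes moved together. Of the 38 genes, 31 had an entry in the RefSeq promoter table (GRCh38.p14, 250 bases before to 50 bases after a start, 43 windows). AURKA, TPX2, TTK, UBE2C, BUB3, FOXM1 and BIRC5 had none. The 100 bases before a start follow for 6 genes of the core machinery, with the tightly following KIF20A among them, and for the 2 genes that followed the others least. Capitals mark CCAAT or its reverse complement ATTGG, and the CHR letters TTTGAA or TTCGAA or their reverse complements. Where a gene had several starts, the window with the most matches is shown.
CCNB1 (cyclin B1, chr5:69167050-69167149, + strand): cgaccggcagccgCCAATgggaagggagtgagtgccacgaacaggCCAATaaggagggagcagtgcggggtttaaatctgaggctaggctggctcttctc
CCNB2 (cyclin B2, chr15:59105046-59105145, + strand): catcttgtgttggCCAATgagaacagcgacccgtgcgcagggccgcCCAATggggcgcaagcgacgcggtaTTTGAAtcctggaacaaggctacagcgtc
CDK1 (chr10:60778378-60778477, + strand): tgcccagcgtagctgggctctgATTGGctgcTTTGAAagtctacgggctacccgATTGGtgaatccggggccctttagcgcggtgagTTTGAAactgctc
PLK1 (chr16:23678789-23678888, + strand): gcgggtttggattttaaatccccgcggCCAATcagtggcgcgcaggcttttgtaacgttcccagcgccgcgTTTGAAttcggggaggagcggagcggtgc
MKI67 (chr10:128126424-128126523, - strand): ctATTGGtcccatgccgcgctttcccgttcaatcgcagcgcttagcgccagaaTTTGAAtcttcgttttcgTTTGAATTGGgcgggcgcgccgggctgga
KIF20A (chr5:138179012-138179111, + strand): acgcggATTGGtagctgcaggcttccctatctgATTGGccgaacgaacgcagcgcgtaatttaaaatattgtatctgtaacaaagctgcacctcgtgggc
NUSAP1 (chr15:41332781-41332880, + strand): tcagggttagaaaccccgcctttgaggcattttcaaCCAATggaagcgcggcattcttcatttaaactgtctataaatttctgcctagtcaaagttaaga
CDC25B (chr20:3796210-3796309, + strand): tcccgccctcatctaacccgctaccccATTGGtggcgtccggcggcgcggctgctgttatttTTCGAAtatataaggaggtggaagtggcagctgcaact
In MKI67 a CHR match and a CCAAT match share 1 base, and 7 of the 8 stretches also hold bases of a longer annotated transcript of the same gene.

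Searched on both strands over the whole window, CCAAT was found in 27 of the 31 genes (87.1%), against 39.7% of 27305 genes with an entry. The CHR letters TTTGAA or TTCGAA were found in 23 genes (74.2%), against 19.5% of all genes. 20 genes held both (64.5%), against 7.85% of all. Counted per window, the shares were 74.4%, 60.5% and 51.2% of the genes' 43 windows, against 34.6%, 16.4% and 6.38% of 35116 windows. In the 150 bases before the start the 3 shares were 83.9%, 58.1% and 51.6% of the 31 genes, against 27.8%, 9.72% and 2.65% of all genes. Of the genes that followed the rest least, CDC25B holds a match of each kind and NUSAP1 a CCAAT match in the printed stretches. The whole NUSAP1 window also holds TTTGAA, from base 14 after the start, and the CDC25B stretch is from 1 of 4 windows. A match is a run of letters and not a shown binding site.

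Over all time points together, none of the 38 genes differed between treated and DMSO lineages past the threshold, an adjusted p under 0.05 (Benjamini-Hochberg over the 14565 genes, as in every test here) in limma. 32 of the 38 were higher in treated lineages, against 48.8% of all genes, with a median log2 difference of 0.0554 against -0.00363 over all genes. No gene of the table passed in this comparison, and 3 of the 38 had an unadjusted p under 0.05, all of them higher in treated lineages, against 6.16% of all genes in that direction. The smallest p belonged to CDC25B, whose time-adjusted lineage values on the log2 scale were 10.75, 11.08, 11.01, 10.92, 10.95, 10.91 and 10.82 in treated R1 to R7, against 10.79, 10.64 and 10.7 in DMSO R8 to R10. 6 of the 7 treated lineages lay above all 3 DMSO lineages, and the difference was 0.21 ± 0.064 (SE, limma adjusted p = 0.288). CENPF, a kinetochore protein of G2 and mitosis (0.12 ± 0.047, limma adjusted p = 0.327), and the chromosome-bound kinesin KIF4A (0.15 ± 0.065, limma adjusted p = 0.354) came next. The other genes set for naming gave log2 differences of 0.11 for CCNB1, 0.093 for AURKA, 0.072 for PLK1, 0.045 for FOXM1, 0.022 for MKI67 and -0.039 for CDK1. The size and direction depended on single lineages and on the first time point. Without time point 1, 16 of the 38 were higher in treated lineages (median -0.0134). Leaving out DMSO R8 gave 23 (0.00962), treated R1 26 (0.0293) and treated R2 29 (0.0368). All 38 were higher without DMSO R10 (0.0972), without the 6 late libraries (0.105) and with plain lineage means that do not adjust for the times a lineage has (0.134). In the fit on plain means 20 of the 38 had an unadjusted p under 0.05, as had 2470 of all 14565 genes, and limma called none.

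At time point 1, after the first VDC course, every one of the 38 genes was higher on average in the 6 treated libraries than in the 3 DMSO libraries, against 49% of all genes. The median log2 difference was 0.407, against -0.00414 over all genes, and every role shared in it: the medians by role ran from 0.34 for the anaphase genes CDC20, UBE2C and PTTG1 to 0.47 for the kinetochore genes, with FOXM1, the transcription factor of the G2 programme, at 0.53. No gene passed the threshold, and the limma adjusted p was 1 for all 38. 7 of the 38 (18.4%) had an unadjusted p under 0.05 and were higher, against 1.11% of all genes: CENPF, CDC25B, CENPE, KIF4A, the cytokinesis exchange factor ECT2, the checkpoint kinase BUB1 and AURKA.

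CENPF ranged from 8266 to 12490 in the treated libraries (median 8464), against 8615, 5218 and 5610 in DMSO R8, R9 and R10. The log2 difference was 0.52 ± 0.17. CDC25B ranged from 1687 to 2286 in the treated libraries (median 1766), against 1635, 1202 and 1249 in the DMSO libraries (0.44 ± 0.15). Its groups did not overlap, and those of PLK1 (1781 to 2212 treated, median 1832, against 1765, 1364 and 1307 DMSO) did not either, a share of 2 in 38 genes against 1.32% of all genes. In both genes DMSO R8 lay just under the lowest treated library, and the DMSO R9 and R10 libraries lay well below it.

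The same shape was seen in the other genes. AURKA, the centrosomal mitotic kinase, ranged from 453.0 to 806.7 in treated libraries (median 489.9), against 460.8, 302.3 and 304.1 in DMSO libraries (log2 difference 0.60 ± 0.29). MKI67 ranged from 9469 to 14660 (median 9821), against 10270, 6658 and 6674 (0.46 ± 0.28). CENPE ranged from 1213 to 1939 (median 1285), against 1399, 824.6 and 827.2 (0.47 ± 0.18). In each of these the treated R1 library was the highest of the 9 and the DMSO R8 library fell among the treated ones. CCNB1 (0.45 ± 0.23), CDK1 (0.32 ± 0.23) and FOXM1 (0.53 ± 0.27) gave like differences. The direction held for all 38 under every alternative run, with a median between 0.31 without treated R1 and 0.604 without DMSO R8. All 38 genes lay below the parental library in both groups at this time, by a median log2 of -0.568 in the treated mean and -0.965 in the DMSO mean.

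**Figure D2:**
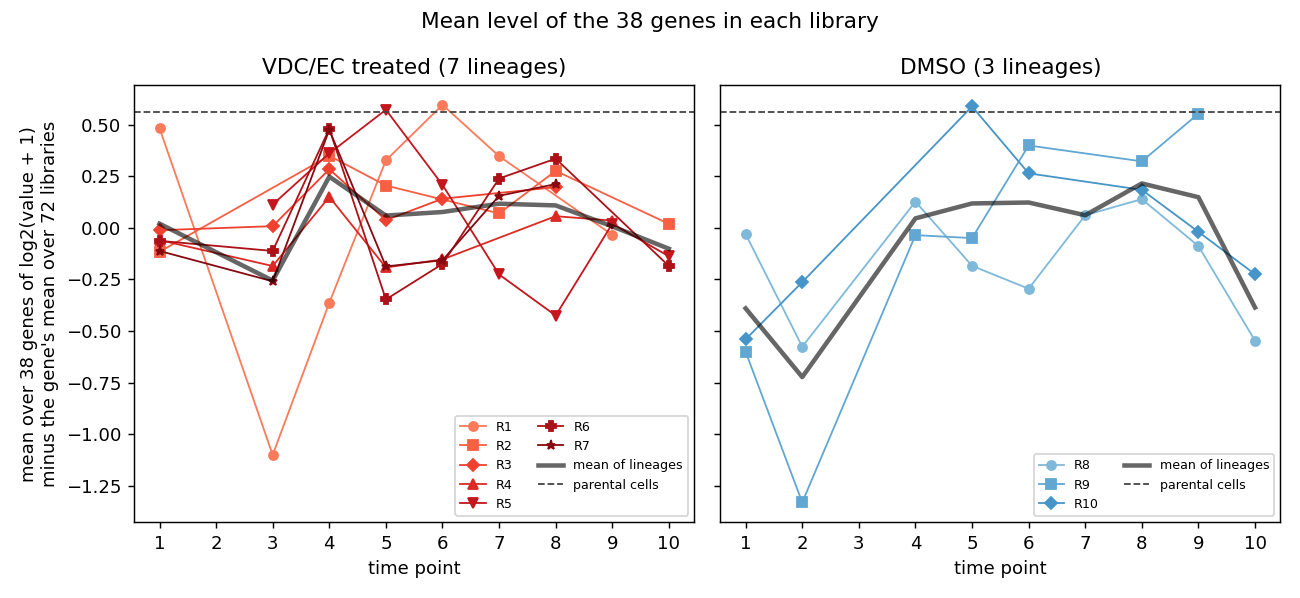
Mean over the 38 genes of log2(value + 1), centred on the 72 evolved libraries, by time point for each treated lineage (left panel) and each DMSO lineage (right panel), with the parental library as a dashed line at 0.563. DMSO R9 and R10 start low, at -0.601 and -0.54 at time point 1, while DMSO R8 starts at -0.0302, among the treated libraries, and treated R1 stands at -1.1 at time point 3.

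DMSO R9 (-0.601) and R10 (-0.54) carried the low end of that comparison, whereas DMSO R8 (-0.0302) lay above 4 of the 6 treated libraries. The mean over the 38 genes at time point 1 was 0.0201 ± 0.23 in treated libraries (SD, n = 6) and -0.39 ± 0.313 in DMSO libraries (n = 3), and at time point 2 the DMSO libraries stood at -0.723 ± 0.548 (n = 3). From time point 2 to the first later library, the 38 genes' median log2 difference (later minus time point 2) reached 0.732 for lineage R8, 1.35 for R9 and 0.833 for R10, with 37, 38 and 38 genes higher in the later library. CDKN1A, the p53-induced inhibitor of cyclin-dependent kinases, was at 50.8 in treated R1 at time point 3, at 53.01 and 71.2 in DMSO R9 and R10 at time point 1 and at 62.1 to 92.7 in the 3 DMSO libraries of time point 2, whereas every other evolved library had at least 178. In these 6 libraries the mean over the mitotic genes ran from -1.33 to -0.263. The sum over the 13 mitochondrially encoded genes was highest in 3 of them, at 486800 in treated R1 at time point 3 and at 358800 and 379000 in DMSO R9 and R10 at time point 2, against medians of 117500 over treated and 119700 over DMSO libraries. In the other 3 it was 189500 to 253200. It also reached 245500 to 278400 in treated R2, R3, R4, R6 and R7 and 297000 in DMSO R8 at time point 1, where the mitotic mean was -0.116 to -0.0116. The part of these 2 measures in the low mitotic values was not tested.

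At time point 4, the first after EC with libraries of both arms, 37 of the 38 genes were higher in treated libraries (n = 7) than in DMSO libraries (n = 2), against 50.4% of all genes, with a median log2 difference of 0.227. Without DMSO R9, which leaves DMSO R8 alone, 30 were higher and the median was 0.109. limma called none of the 38 past the threshold and none had an unadjusted p under 0.05, against 3.09% of all genes. Among the genes set for naming, FOXM1 was at 0.25, MKI67 and CCNB1 at 0.23, PLK1 and AURKA at 0.23 and CDK1 at 0.035, and the smallest p belonged to CDC25B (0.28 ± 0.17).

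Within the treated lineages, time point 4 stood above time point 3. In each of the 6 treated lineages with both libraries, 36 to 38 of the 38 genes were higher at time point 4, and 34 of the 38 (89.5%) were higher in every lineage, against 8.82% of all genes. This contrast was chosen after its values were seen and no test was run on it. The median log2 difference over the 38 genes was 0.787 in R1, 0.284 in R3, 0.36 in R4, 0.242 in R5, 0.615 in R6 and 0.743 in R7. TPX2 ranged from 2121 to 4627 in the 7 libraries of time point 4 (median 4012), against 1028 to 3000 in the 6 libraries of time point 3 (median 2723). AURKA ranged from 402.0 to 1210 at time point 4 (median 970.0), against 230.7 to 672.9 at time point 3 (median 560.7). The groups overlapped in both genes through treated R1, which was the lowest library at each of these times. Time point 3 had no DMSO library, so this step has no solvent counterpart.

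At time points 5, 6, 8 and 9 the medians lay just below 0, and at each of these times leaving out a single lineage turned the direction. The number of the 38 genes higher in treated libraries was 10 at time point 5 (median log2 difference -0.0562, against 43.9% of all genes higher), 10 at time point 6 (-0.0743, against 47.4%), 6 at time point 8 (-0.0938, against 53.2%) and 11 at time point 9 (-0.109, against 49.9%). At time point 5, 37 were higher without DMSO R10 (median 0.175) and 20 without treated R6 (0.00597). At time point 6, 28 were higher without DMSO R9 (0.0771) and 22 without DMSO R10 (0.0257). At time point 8, 21 were higher without treated R5 (0.00971). limma called none of the 38 at any of these times, and 1 gene had an unadjusted p under 0.05, NUSAP1 at time point 6 (0.71 ± 0.34, limma adjusted p = 1), against 2.38% of all genes higher at that level then. At time points 5, 8 and 9 the share of all genes with an unadjusted p under 0.05 was 1.35%, 10.1% and 14.9%. MKI67 gave log2 differences of -0.25, -0.28, -0.17 and -0.0086 at the 4 times, AURKA 0.087, 0.13, -0.014 and -0.35, CDK1 -0.077, -0.074, -0.16 and -0.34, CCNB1 0.018, 0.010, 0.0063 and -0.27, PLK1 0.094, 0.034, -0.073 and -0.29, and FOXM1 -0.12, -0.12, -0.095 and -0.13. At time point 8 the smallest p belonged to CDC25C, the phosphatase that fires CDK1 at mitotic entry, which ranged from 158.4 to 264.3 in treated libraries (median 207.1), against 237.0, 365.2 and 277.6 in DMSO libraries (-0.47, limma adjusted p = 0.601). At time point 9 it belonged to HMMR, a spindle pole protein, at 383.4, 287.1 and 409.0 in treated R1, R4 and R5 against 447.6, 939.3 and 396.8 in DMSO R8, R9 and R10 (-0.63, limma adjusted p = 0.448). The DMSO R9 library stood high there, and without R9 the median at time point 9 was 0.0762 with 26 genes higher in treated libraries. Without the 6 late libraries, which leaves DMSO R8 alone at time point 9, 25 genes were higher there (0.14). Time point 8 then had 9 genes higher (-0.0495). The values of single genes above include the late libraries. AURKA at time point 9, for instance, was at 596.1 and 891.6 in treated R4 and R5, against 593.7 in DMSO R8. In the fit of all libraries, limma called 0.542% of all genes higher and 0.79% lower at time point 9.

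At time point 10, after the last EC course, the genes were again mostly higher in treated libraries. 34 of the 38 were higher (n = 3 against n = 2), against 46.8% of all genes, with a median log2 difference of 0.29, and in 20 the libraries of the arms did not overlap with the treated ones higher, against 8.16% of all genes. None passed the threshold in limma, where 0.0343% of all genes were called higher and 0.0275% lower, and none of the 38 had an unadjusted p under 0.05, against 11.8% of all genes. KIF4A was at 1077, 923.7 and 952.0 in treated R2, R5 and R6, against 659.5 and 647.0 in DMSO R8 and R10 (0.59 ± 0.31, limma adjusted p = 0.466). KIF11, the motor that pushes spindle poles apart, was at 1999, 1713 and 1764 in treated libraries, against 1380 and 1169 in DMSO libraries (0.52 ± 0.28). DLGAP5, which stabilizes spindle microtubules, was at 1277, 1168 and 964.0 in treated libraries, against 530.7 and 963.9 in DMSO libraries (0.66 ± 0.36), so its groups all but touched. CCNB1 (0.48 ± 0.30), MKI67 (0.27), PLK1 (0.24) and CDK1 (0.13) were higher as well, while AURKA (-0.029) and FOXM1 (-0.044) were about equal. Without DMSO R8, which leaves DMSO R10 alone, the median was 0.219 with 26 genes higher. Without the 6 late libraries, which leaves DMSO R8 alone, it was 0.429 with 37 higher.

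**Figure D3:**
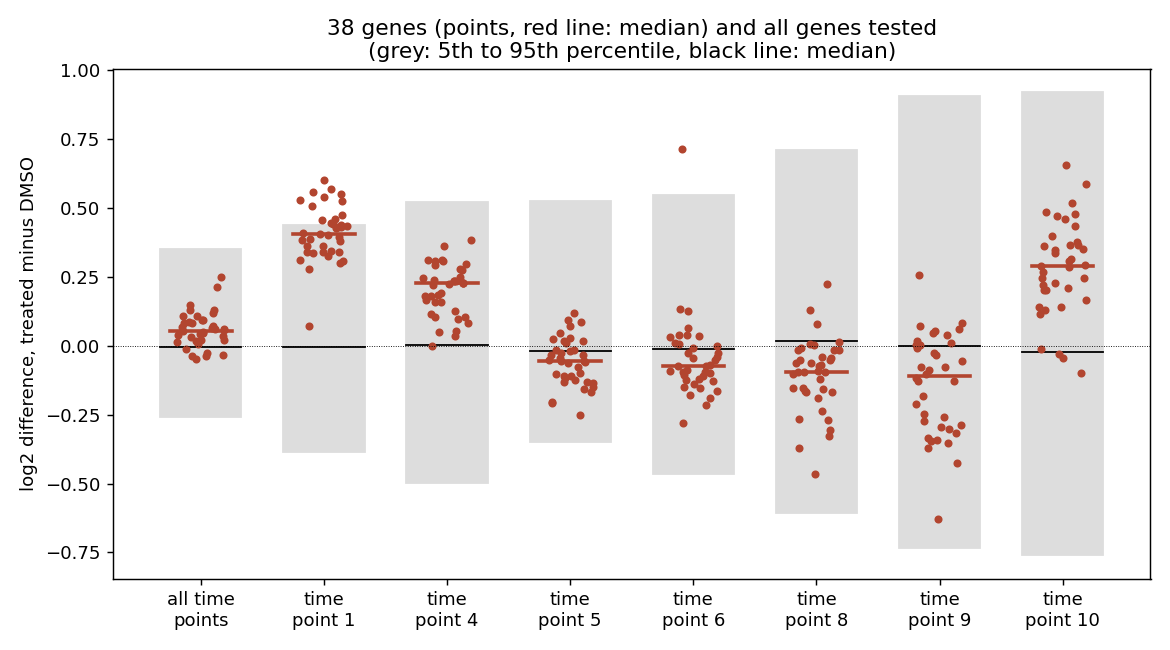
Treated minus DMSO difference (log2 scale) of each of the 38 genes at each time point compared and over all time points, with bars for the range between the 5th and 95th percentiles of all 14565 genes. The genes cluster above 0 at time points 1, 4 and 10, with medians of 0.407, 0.227 and 0.29, and around or just below 0 at time points 5, 6, 8 and 9.

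Along time, 3 of the 38 genes rose in the DMSO lineages past the threshold and none fell, against 4.55% of all genes rising and 5.31% falling (limma on the slopes of 3 lineages). The slope is the log2 change per time point within a lineage. CDC25B had slopes of 0.0951, 0.121 and 0.0458 in DMSO R8, R9 and R10 (mean 0.087 ± 0.018 SE, limma adjusted p = 0.0263). AURKA had slopes of 0.0579, 0.289 and 0.124 (0.157 ± 0.043, limma adjusted p = 0.0456), and KIF2C of 0.0529, 0.295 and 0.0830 (0.144 ± 0.040, limma adjusted p = 0.0488). All 3 lineages had positive slopes in each of these genes, and R9 had the steepest.

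The library values show where the slopes came from. AURKA in DMSO R9 was at 302.3, 210.2, 660.6, 503.6, 875.9, 943.9 and 1243 at time points 1, 2, 4, 5, 6, 8 and 9. In DMSO R8 it was at 460.8 and 303.1 at time points 1 and 2 and between 451.6 and 863.4 later. In DMSO R10 it was at 304.1 and 414.3 at time points 1 and 2 and between 687.9 and 983.2 later. The early libraries were thus the low ones in R9 and R10, and in R8 the last library was below the first. KIF2C in DMSO R9 was at 821.0, 342.3, 986.1, 1018, 1458, 2141 and 2701 at the same times, the widest course of the 3 genes. CDC25B was at 1202 and 942.8 in DMSO R9 at time points 1 and 2 and between 1473 and 2120 later.

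Beyond the called genes, 37 of the 38 had a mean DMSO slope above 0 (against 43.6% of all genes), the median was 0.0764 per time point against -0.00912 over all genes, and 18 were higher at an unadjusted p under 0.05, against 13.2% of all genes. 19 had a positive slope in all 3 DMSO lineages, against 23.3% of all genes. The exception was NUSAP1 (-0.074, limma adjusted p = 0.116), the 1 gene lower at an unadjusted p under 0.05, against 19.9% of all genes. Among the genes set for naming, FOXM1 was at 0.089, CCNB1 at 0.076, MKI67 at 0.061, PLK1 at 0.042 and CDK1 at 0.040, none called. The direction turned without time points 1 and 2, where 9 of the 38 had a slope above 0 (median -0.0269), and held without time point 1 alone (36, median 0.0747) and without R9 (29, median 0.0172). None of the 38 was called in any of these 3 fits, or without R10. Without time point 1, 0 of all 14565 genes were called in DMSO lineages. R9 had the steepest slope of all 10 lineages in 37 of the 38 genes. The median over the 38 genes was 0.195 in R9, against 0.0325 in R10 and 0.00359 in R8. Without the 6 late libraries, 17 of the 38 genes were called as rising (median over the 38 genes 0.131), against 1219 of all 14565 genes. Without DMSO R8 it was 9 of the 38. The calls also moved with treated lineages, since the fit shares 1 estimate of the spread: CDC25B alone was called without treated R1, R2, R4, R6 or R7, and 6 genes without treated R5.

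In the treated lineages 1 of the 38 genes rose and 1 fell, against 15.6% and 23.8% of all genes. NUSAP1 was the 1 gene of the 38 that fell in all 7 lineages, against 14.7% of all genes. It fell by 0.127 ± 0.019 log2 units per time point (limma adjusted p = 0.00248). Its values averaged 11.1 ± 3.33 at time point 10 (SD, n = 3), against 25.8 ± 6.22 at time point 1 (n = 6) and 34.6 in the parental library. In single libraries it stood at 14.52, 7.882 and 10.9 at time point 10 and ranged from 17.83 to 34.44 at time point 1, so these times did not overlap. The levels are low, and 99.4% of the NUSAP1 locus (chr15:41332694-41381050, + strand, GRCh38) lies within AC087721.2, a longer gene annotated on the same strand, with which the authors' counting could share reads. PRC1, the midzone bundler, has such a partner over 99.5% of its length (AC068831.7), and CENPA over 46.1% (SLC35F6).

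CDC25B (chr20:3786772-3806121, + strand) was the 1 gene of the 38 that rose in all 7 treated lineages, against 10.9% of all genes. It rose by 0.047 ± 0.012 log2 units per time point (limma adjusted p = 0.012), with slopes between 0.0245 and 0.0676. It averaged 2338 ± 204 at time point 10 (n = 3), against 1837 ± 224 at time point 1 (n = 6). No gene overlaps it in the annotation. It therefore rose in both arms, and the difference of its slopes was -0.040 (treated minus DMSO, limma adjusted p = 0.581). Neither gene was called without time point 1, where 426 genes of the whole table were called, against 5741 with it. The slope of NUSAP1 was then -0.0879 (limma adjusted p = 0.0761), and that of CDC25B was larger, 0.0682 (limma adjusted p = 0.074).

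The other 36 genes had treated slopes on both sides of 0. 24 of the 38 were above 0 (against 43.9% of all genes), with a median of 0.0104 against -0.00759 over all genes. On leaving out each lineage the median lay between 0.00472 without R7 and 0.0249 without R5, and it was 0.0017 without treated R1 at time point 3. AURKA was at 0.043, CCNB1 at 0.020, PLK1 at -0.011, CDK1 at -0.024, MKI67 at -0.027 and FOXM1 at -0.028, none called. At an unadjusted p under 0.05, UBE2C (0.049, limma adjusted p = 0.0883) joined CDC25B above 0 and no gene joined NUSAP1 below it, against 20.1% of all genes rising and 29.6% falling at that level. The 7 lineages differed in the block as a whole: the median slope of the 38 genes was 0.0485 in R1, 0.0161 in R2, 0.0309 in R3, 0.0125 in R4, -0.0816 in R5, 0.00926 in R6 and 0.0435 in R7. R5 had the lowest slope of all 10 lineages in 35 of the 38 genes, and 1 gene, CDC25B, had a positive slope there. MKI67 in R5 was at 8915, 11480, 12880, 11910, 6897, 6381, 7664 and 6465 at time points 3 to 10. R5 has no library at time point 1. Without R5, CDC20, HMMR, UBE2C and the survivin gene BIRC5 joined CDC25B above the threshold.

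**Figure D4:**
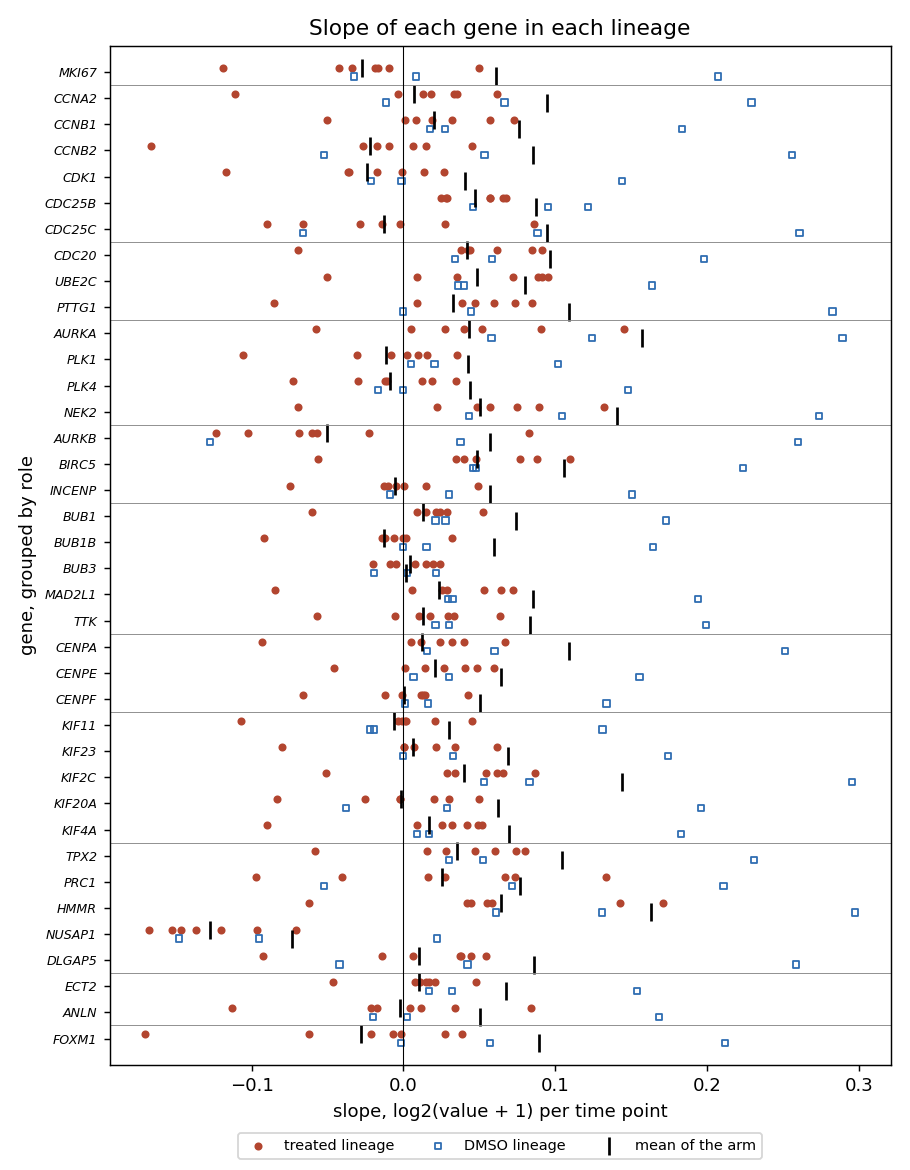
Slope of each of the 38 genes (log2 units per time point) in each lineage, with the 7 treated lineages as filled points, the 3 DMSO lineages as open squares and a tick for the mean of each arm. The highest point is DMSO R9 in 37 genes and the lowest is treated R5 in 35, and the NUSAP1 points of all 7 treated lineages lie below 0.

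None of the 38 slopes differed between treated and DMSO lineages in limma, and 37 of the 38 differences lay below 0 (median -0.0625 per time point), against 51.4% of all genes above 0. No gene of the table passed. 2 of the 38 had an unadjusted p under 0.05, both lower in treated lineages, against 5% of all genes in that direction. They were FOXM1 (-0.117 ± 0.051, limma adjusted p = 0.537) and AURKA (-0.114 ± 0.051, limma adjusted p = 0.545), followed by KIF2C (-0.104, limma adjusted p = 0.547). The differences for MKI67 (-0.088), CDK1 (-0.064), CCNB1 (-0.056) and PLK1 (-0.054) were of the same sign. The direction turned without time points 1 and 2, where 31 of the 38 differences lay above 0 (median 0.0405), but not without time point 1 alone (1 above 0, median -0.0577). Without R9, 11 lay above 0 and the median shrank to -0.00908. It was -0.0964 without R8 and -0.111 without the 6 late libraries.

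**Figure D5:**
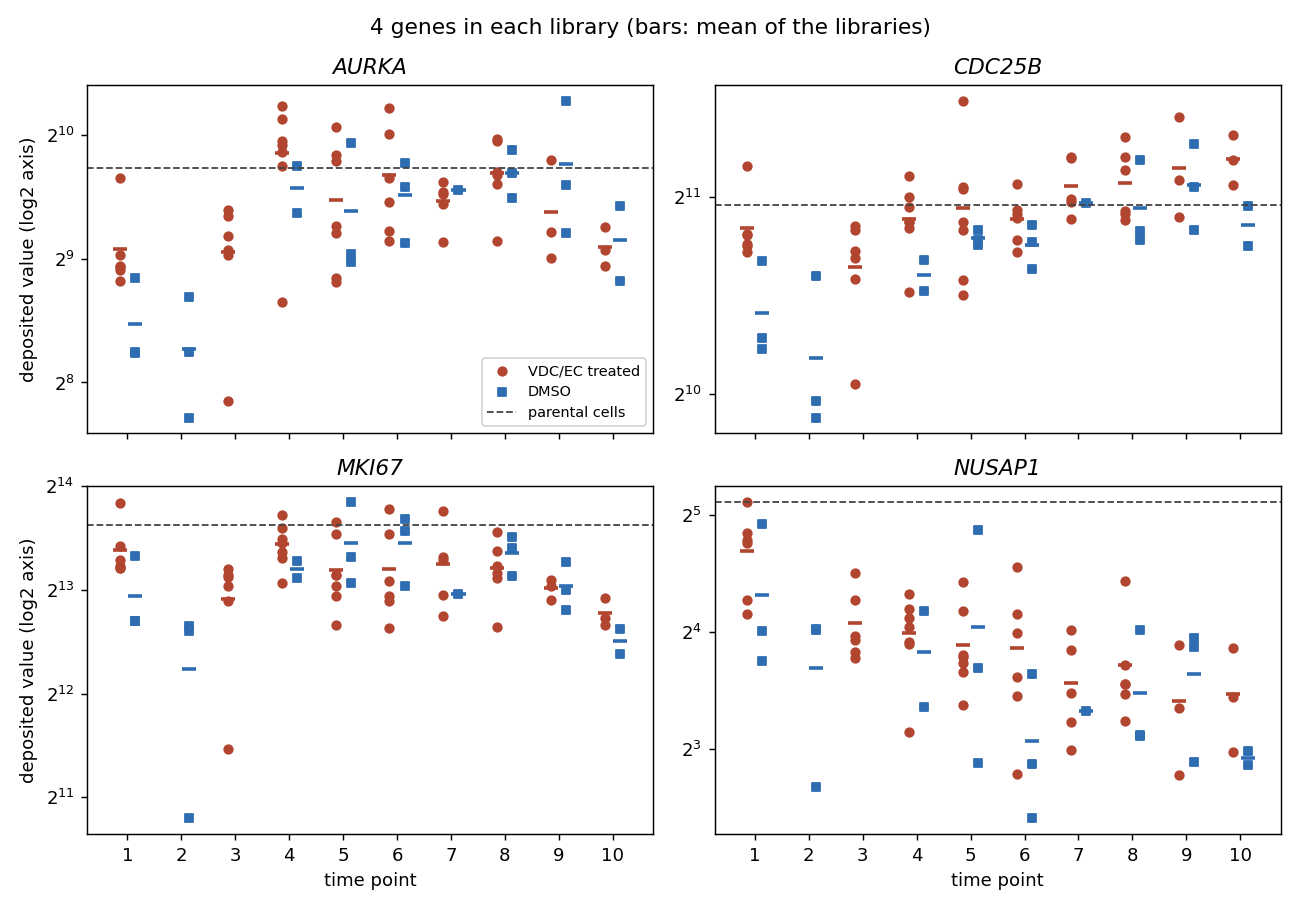
Values of AURKA, CDC25B, MKI67 and NUSAP1 in every library by time point (log2 axis, quantile-normalized counts), treated and DMSO lineages side by side with the parental library. CDC25B climbs in both arms, NUSAP1 declines in the treated arm to 11.1 on average at time point 10, and AURKA and MKI67 are lowest in DMSO R9 at time point 2, at 210.2 and 1780.

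By the last course given, the genes were lower after VDC than after EC in the treated lineages, but none past the threshold. 37 of the 38 were lower after VDC, against 50.4% of all genes higher, with a median log2 difference of -0.136. 2 genes had an unadjusted p under 0.05, against 6.69% of all genes in that direction: AURKA (-0.34 ± 0.14, limma adjusted p = 0.246) and CDK1 (-0.22 ± 0.10, limma adjusted p = 0.312). CENPE came next (-0.13, limma adjusted p = 0.382), and MKI67 (-0.15), CCNB1 (-0.15), FOXM1 (-0.15) and PLK1 (-0.094) had the same sign. The gene on the other side was CDC25B (0.025). Time points 3 and 4 carried most of it: without them the median was -0.0468, 8 of the 38 were higher after VDC and none had an unadjusted p under 0.05.

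In the DMSO lineages, where odd and even times differ in no drug, 36 of the 38 genes were higher at odd times, against 50.2% of all genes, with a median of 0.158, or 0.0486 without DMSO R9 at time point 2. limma called none, and none of the 38 had an unadjusted p under 0.05, against 2.53% of all genes. The difference of the 2 effects, treated minus DMSO, was below 0 for all 38 (median -0.295, against 50.3% of all genes above 0), and again limma called none. TTK, the checkpoint kinase at kinetochores, had the smallest p (-0.38 ± 0.17, limma adjusted p = 0.914) and the single unadjusted p under 0.05 among the 38 (against 1.92% of all genes lower at that level), followed by NUSAP1 (-0.47) and AURKB (-0.46). The differences were -0.43 for AURKA, -0.39 for FOXM1, -0.38 for MKI67, -0.32 for CCNB1, -0.27 for CDK1 and -0.23 for PLK1. Without DMSO R9 at time point 2 and treated R1 at time point 3, the median was -0.166.

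Genes outside the list moved with it. The 10 genes most alike the mean of the 38, over 71 libraries with arm and time means taken out, were RACGAP1 (0.971), a partner of KIF23 in cytokinesis, the kinetochore protein NDC80 (0.964), CDCA8 (0.961), a subunit of the complex of AURKB, INCENP and BIRC5, CDCA2 (0.95), CKAP2L (0.949), HJURP (0.942), the loading factor of CENPA, CEP55 (0.94), STIL (0.936), TACC3 (0.934) and TUBB4B (0.933). By list, the median correlation was 0.871 for 27 other spindle and cytokinesis genes, 0.832 for 22 other checkpoint and entry regulators, 0.816 for 25 replication genes, 0.809 for 18 condensin and cohesin genes and 0.783 for 27 kinetochore genes. It was 0.287 for 16 subunits and factors of the anaphase ligase, 0.399 for 12 DREAM and MuvB subunits, 0.0784 for 10 p53 targets that block the cycle and -0.459 for the 13 mitochondrially encoded genes (-0.532 to -0.315).

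The related lists shared the direction at time point 1 with no call in any of them. 26 of 27 spindle and cytokinesis genes were higher in treated libraries, against 49% of all genes (median log2 0.437), as were 26 of 27 kinetochore genes (0.277), 15 of 18 condensin and cohesin genes (0.278), 20 of 22 checkpoint and entry regulators (0.251) and 23 of 25 replication genes (0.172). The 16 anaphase ligase genes were near 0 (0.0353). 9 of 10 p53 targets were higher too (0.536), CDKN1A by 2.35 ± 0.92 (limma adjusted p = 1). CDKN1A was at 53.01 and 71.16 in DMSO R9 and R10, against 1229 in DMSO R8. It was at 509.8 to 1387 in treated libraries and 880 in the parental library. At time points 8, 9 and 10, which include the late libraries, 0 of 10 p53 targets were higher (medians -0.8, -0.866 and -0.628). CDKN1A differed there by -1.81, -2.05 and -1.32, with no call. At the times compared in between, the list's medians ran from -0.0937 to 0.181.

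The slopes of these lists stand here beside the shares of all genes called, 15.6% rising and 23.8% falling in treated lineages and 4.55% and 5.31% in DMSO lineages. In treated lineages 9 of 27 kinetochore genes fell and 1 rose, among them CENPM (-0.067), MIS12 (-0.066) and CENPC (-0.063), and none of 27 spindle genes passed. Of 22 checkpoint and entry regulators 2 rose, the CDK-binding proteins CKS2 (0.069) and CKS1B (0.064), and 2 fell, MAD1L1 (-0.13) with the largest slope. Of 16 anaphase ligase genes 2 rose, UBE2S (0.088) most, and 4 fell, among them ANAPC4 (-0.067) and ANAPC2 (-0.060). In DMSO lineages UBE2S (0.17) and the spindle gene DEPDC1 (0.10) rose, and CENPC (-0.094), SPDL1 (-0.062), ANAPC4 (-0.11) and ANAPC5 (-0.074) fell. PLK2, a p53 target, rose in both arms (0.31 in treated and 0.70 in DMSO lineages), while ZMAT3 (-0.16) and SESN1 (-0.13) fell in treated lineages. CDKN1A had slopes of 0.010 in treated lineages (limma adjusted p = 0.948) and 0.58 ± 0.17 in DMSO lineages (limma adjusted p = 0.0527). Without time point 1, none of these lists kept a called gene in either arm apart from SESN1 in treated lineages. Of all 14565 genes, 152 were then called as rising and 274 as falling in treated lineages, and 0 in DMSO lineages. Without the 6 late libraries, 4 of the 27 kinetochore genes were called as falling in treated lineages, against 2884 of all 14565 genes. In DMSO lineages 12 of the 27 spindle genes were then called as rising, against 1219 of all genes. All 13 mitochondrially encoded genes fell in both arms, with medians of -0.135 in treated and -0.223 in DMSO lineages, and none was called in either arm without time point 1.

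Of the markers of other cell types, 4 of 9 epithelial, 3 of 8 blood cell and 8 of 9 fibroblast and muscle markers had a mean value of at least 10. The epithelial markers EPCAM and KRT5 and the T cell marker CD3E were at 0 in the lowest library and at 4.52, 1.82 and 2.06 in the highest. Others were present and varied: KRT18 ranged from 0.0132 to 1164, KRT8 from 1.34 to 396.2, ESRP1 from 1.19 to 213 and the B cell marker CD79A from 51.49 to 1050. In the treated slopes, where CDC25B rose and NUSAP1 fell, the epithelial markers KRT18 (0.41), ESRP1 (0.32) and KRT8 (0.29) rose, as did COL1A1 (0.39), DES (0.22), ACTA2 (0.21) and COL3A1 (0.12), while the Ewing sarcoma markers LIPI (-0.098), STEAP1 (-0.080) and PRKCB (-0.028) fell. In the DMSO slopes, where AURKA, CDC25B and KIF2C rose, ESRP1 (0.35), ACTA2 (0.35) and CORO1A (0.24) rose, and LIPI (-0.19) and STEAP1 (-0.15) fell. Without time point 1 COL1A1 in treated lineages was the only one of these markers still called. Summed over the whole list, the 9 epithelial markers ranged from 41.9 to 785.5 in treated and from 50.6 to 1497 in DMSO libraries. The 8 blood cell markers ranged from 109 to 297 in treated and from 101 to 1184 in DMSO libraries. The 9 fibroblast and muscle markers, some of which Ewing sarcoma cells express, ranged from 7252 to 52780 in treated and from 5691 to 20030 in DMSO libraries. The part of these markers in the values of the mitotic genes was not tested.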

How the data were processed

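Per the labels' protocols, extraction used the Qiagen AllPrep kit and STAR served for alignment and counting. In the submitters' processing notes, featureCounts and the build GRCh38 also stand, with no versions. The unit of the table that the authors deposited (36233 genes, 73 columns) is a signal, namely quantile-normalized counts. Treated columns share a total of 13583520, and DMSO and parental columns 13582508, so the arms appear to have been normalized apart; the method, the strand setting and the depth are not given in the sources used here. This scaling removes differences in total RNA.

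A pseudocount of 1 was added before taking log2, and genes whose mean reached 10 were kept (14565). limma 3.58.1 (trend) in R 4.3.3, with the data.table package at version 1.17.8, fitted all genes, and p-values (2-sided) were adjusted by Benjamini-Hochberg over all of them, with a threshold of 0.05. Over all time points, lineage values adjusted for time point by least squares were compared (7 against 3). Single time points used 1 fit of 72 libraries, slopes were fitted within lineages, and the last course was compared with a replicate block for lineage and with time as a linear term. Lineage numbers differ between arms, so they pair no samples across arms. Deviations of same-lineage libraries correlated at a mean of 0.0814 over 219 pairs, and other pairs within an arm at -0.0152.

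The members, lists and comparisons were chosen with earlier results of these data known. Named with values were members past the threshold (up to 8 by size), otherwise the 3 with the smallest p, and always MKI67, CDK1, CCNB1, PLK1, AURKA and FOXM1; from other lists up to 3 called genes, and CDKN1A. Alternatives were another pseudocount, no filter, joint quantile normalization, leaving out lineages, libraries or time points, and other designs. Simulated data were used to test the fits. Tables were joined with pandas 2.3.3 and figures drawn with matplotlib 3.10.9 in Python 3.11.15.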

Additional observations from a re-analysis of the deposited data

Results flagged for a closer look

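6 of 18 sets of treated libraries or lineages examined held a value far from the others by Dixon's criterion. Chance meets it in about 1 of 20 independent groups. These sets share lineages and genes, so their number cannot be set against that rate. All 6 values belong to 2 lineages, and none was tested further. In R1 the mean over the 38 genes (log2, centred) was 0.483 at time point 1, with the nearest treated library at -0.0116. It was -1.1 at time point 3, with the nearest at -0.259, and -0.363 at time point 4, with the nearest at 0.15. In R5 the mean was -0.425 at time point 8, with the nearest treated library at 0.0564. The slope of this mean in R5 was -0.082 per time point, with the nearest treated lineage at 0.00505, and the slope of KIF2C in R5 was -0.0512, with the nearest at 0.0284.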

How the results depend on the processing

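Over all 38 genes, 9500 values were refitted under 23 alternatives: in 30 a call was lost, in 32 one was gained, and in none were the calls in opposite directions. The 117 results of genes set for naming gave 2089 refitted values. Of these 2089, 74 that were uncalled changed sign and 2 gained a call. The gained calls were CDC25B over all time points without R8 (0.269, limma adjusted p = 0.047) and CCNB1 in the DMSO slope without 6 late libraries (0.118, limma adjusted p = 0.0449). Of the 38 genes, the count past the threshold over all time points was 0, and between 0 and 2 on leaving out each lineage (2 without R8: CDC25B higher, AURKB lower). For the treated slope it was 2, between 2 and 6 on leaving out each lineage (6 without R5), and 0 without time point 1 and without time points 1 and 2. In DMSO lineages 1219 of all 14565 genes were called as rising without 6 late libraries, and 0 in either direction without time point 1. For the DMSO slope the count of the 38 was 3, and 1 with no filter on low values. It was between 0 (without R9 or R10) and 9 (without R8) on leaving out each lineage, 17 without 6 late libraries, and 0 without time point 1 and without time points 1 and 2. The other counts stayed at 0 wherever run. With lineage as a replicate block (consensus correlation 0.0279) the counts at single time points were also 0, as were those of the last course with no replicate block. The median over the 38 genes turned from negative to positive at time point 5 without R10 (0.175) and R6 (0.00597), at time point 6 without R9 (0.0771) and R10 (0.0257), at time point 8 without R5 (0.00971), at time point 9 without R9 (0.0762) and without the 6 late libraries (0.14), and for the slope difference without time points 1 and 2 (0.0405). It turned negative over all time points without time point 1 (-0.0134) and for the DMSO slope without time points 1 and 2 (-0.0269). It was 0.109 at time point 4 without R9, against 0.227. Settings without time points 1 and 2, 3 and 4, or single libraries were chosen after seeing the data. With 3 DMSO lineages, 2 or 3 libraries per late group and unknown depth, small differences were not detectable. The cause of these shifts was not tested.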
